A study of Mus musculus with 36 samples.

Results

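The mouse prolactin receptor gene, Prlr, was read CpG by CpG in liver whole genome bisulfite sequencing, an assay in which unmethylated cytosines are converted and methylated ones are not, so that each read reports the state of each CpG it crosses. The members were all CpGs with deposited counts between positions 10100000 and 10290000 of chromosome 15 (mm9), which came to 1267 of the 19751474 CpGs in the count tables and to all but 1 of the 1268 CG dinucleotides of the mm9 sequence there. They were read singly and in 380 windows of 500 bases. A window was tested where 3 CpGs or more were covered by 30 reads or more in each animal, which kept 215 windows with 1056 CpGs. The other 211 CpGs lay in 135 windows that were too sparse and entered the counts per CpG and the regional means only.

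Livers of 24 mice, all sacrificed at 20 weeks, fell into 8 groups of 3. The parents were inbred C57BL/6N (B6) or C3H/HeN (C3), paired at 10 weeks, giving 6 sires and 6 dams. The hybrids were B6C3F1, from a B6 mother and a C3 father, and C3B6F1, from the reverse cross, giving 6 sons and 6 daughters. Every dam had borne and nursed a litter and every daughter was a virgin hybrid. Having borne pups, being inbred and belonging to the parent generation therefore coincide among the females, and cannot be told apart in a comparison of daughters with dams. The males give the contrast of inbred parents with hybrid offspring without pregnancy. Each cross came from 3 nuclear families, so that parents and offspring are related. DNA came from pulverised frozen liver tissue. In such bulk tissue a change in the share of a cell type and a change within 1 cell type cannot be told apart.

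The prolactin receptor is a class I cytokine receptor that binds prolactin and placental lactogens and signals through the kinase Jak2 and the factor Stat5. In rodents the liver is among the tissues richest in the receptor, and its amount there is higher in females than in males and changes with pregnancy and lactation. The gene has alternative first exons that are spliced to common coding exons, and long and short receptor forms that differ in the part inside the cell. CpG methylation is usually low at active promoters and high across gene bodies, with dips at regulatory elements.

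In the annotation of the mm9 assembly Prlr ran on the plus strand from 10106993 to 10303504, so that the interval began upstream of the gene and ended within it. The start of a neighbouring gene, Agxt2, an aminotransferase, also fell in the interval, at 10288287. The annotation held 14 transcripts with 11 distinct starts, which formed 7 start regions when 500 bases were taken on either side of each start. Their exons merged into 18, numbered here in order along the gene, and introns carry the number of the exon before them. Intron 16, which starts after 10278935, belongs to only 1 of the 14 transcripts, a nonsense-mediated decay form, and all the others, the protein-coding ones among them, end at or before it. Distances below are counted from the first annotated start. The CpGs were sparse, with a median of 86 bases between neighbours, and the mean depth over them ranged from 21.4 to 35.5 reads per CpG across the animals.

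The sequences that the main differences fell on are shown first, chosen as the 6 differentially methylated regions (DMRs, runs of at least 5 CpGs in which most CpGs differ) with the largest difference between sires and dams. They are mm9 plus-strand sequence written 5′ to 3′ in lower case, with the CpGs of the count tables in capitals. DMR1 (chr15:10111146-10111445) and DMR2 (chr15:10136262-10136561) are the first 300 bases of longer regions in intron 1, DMR3 (chr15:10156433-10156665) and the last 300 bases of DMR4 (chr15:10160498-10160797) lie in intron 4, DMR7 (chr15:10187888-10188070) in intron 5, and 300 bases within DMR8 (chr15:10279860-10280159) in intron 16. Where a region was longer than 300 bases, the stretch with the most CpGs is shown.
DMR1: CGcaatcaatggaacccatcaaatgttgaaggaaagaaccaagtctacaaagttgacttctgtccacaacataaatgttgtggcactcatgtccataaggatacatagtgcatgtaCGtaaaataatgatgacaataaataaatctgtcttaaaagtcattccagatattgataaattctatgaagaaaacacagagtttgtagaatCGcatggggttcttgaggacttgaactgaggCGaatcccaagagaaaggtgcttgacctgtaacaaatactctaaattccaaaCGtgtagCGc
DMR2: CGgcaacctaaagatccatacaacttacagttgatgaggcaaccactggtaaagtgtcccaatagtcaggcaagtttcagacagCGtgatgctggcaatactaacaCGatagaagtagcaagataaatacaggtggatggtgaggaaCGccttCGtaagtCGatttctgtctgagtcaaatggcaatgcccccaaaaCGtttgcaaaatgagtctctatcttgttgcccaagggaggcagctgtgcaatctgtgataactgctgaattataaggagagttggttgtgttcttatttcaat
DMR3: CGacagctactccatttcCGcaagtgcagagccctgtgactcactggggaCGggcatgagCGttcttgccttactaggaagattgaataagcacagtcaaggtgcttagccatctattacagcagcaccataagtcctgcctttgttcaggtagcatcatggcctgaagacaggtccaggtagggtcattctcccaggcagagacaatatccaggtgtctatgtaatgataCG
DMR4: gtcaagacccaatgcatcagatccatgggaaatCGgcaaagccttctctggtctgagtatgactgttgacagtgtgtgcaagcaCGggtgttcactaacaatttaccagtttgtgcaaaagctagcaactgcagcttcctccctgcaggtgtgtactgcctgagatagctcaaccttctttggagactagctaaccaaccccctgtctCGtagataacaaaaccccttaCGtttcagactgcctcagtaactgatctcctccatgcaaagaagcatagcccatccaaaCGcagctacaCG
DMR7: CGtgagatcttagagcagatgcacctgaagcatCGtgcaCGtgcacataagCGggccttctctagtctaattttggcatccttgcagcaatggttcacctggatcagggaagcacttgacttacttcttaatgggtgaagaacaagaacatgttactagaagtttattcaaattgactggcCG
DMR8: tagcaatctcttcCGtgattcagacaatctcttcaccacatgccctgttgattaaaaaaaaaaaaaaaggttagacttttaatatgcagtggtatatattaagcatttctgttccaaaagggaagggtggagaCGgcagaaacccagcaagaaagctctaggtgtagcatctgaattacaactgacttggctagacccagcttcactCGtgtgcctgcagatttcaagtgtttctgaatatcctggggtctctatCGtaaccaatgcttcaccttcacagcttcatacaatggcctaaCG

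For contrast, the 250 bases before 2 RefSeq starts of Prlr are given in the same notation. They were found in mm9 by an exact and unique match of the RefSeq promoter table, whose own build is GRCm38.p6. Promoter 1 (chr15:10106743-10106992) is the promoter of exon 1, and promoter 2 (chr15:10153411-10153660) lies at exon 4.
Promoter 1: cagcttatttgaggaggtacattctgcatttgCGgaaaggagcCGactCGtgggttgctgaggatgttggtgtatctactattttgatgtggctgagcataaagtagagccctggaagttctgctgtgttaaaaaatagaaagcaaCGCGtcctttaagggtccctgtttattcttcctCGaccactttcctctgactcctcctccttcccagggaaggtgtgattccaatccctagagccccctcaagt
Promoter 2: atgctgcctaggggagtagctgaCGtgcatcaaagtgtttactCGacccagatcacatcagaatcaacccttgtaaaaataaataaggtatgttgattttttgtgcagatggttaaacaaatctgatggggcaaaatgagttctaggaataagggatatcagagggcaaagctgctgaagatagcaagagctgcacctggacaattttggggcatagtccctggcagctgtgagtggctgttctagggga

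Across the whole interval the livers of dams were the least methylated, those of daughters lay between, and those of sires and sons were the highest. Regional levels are methylated reads as a percentage of all reads. In the 6 sires the level ran from 74.7% over a median of 74.9% to 75.4%, with a mean of 75.01% ± 0.266 (SD). In the 6 dams it ran from 66.0% over 66.8% to 69.1%, with a mean of 67.4% ± 1.30 (SD). No dam reached the lowest sire, and the spread among dams was larger than that among sires.

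The sons lay at 73.3%, 74.7% and 74.97% for the lowest, median and highest animal, with a mean of 74.4% ± 0.622 (SD, n = 6). The daughters lay at 70.6%, 71.6% and 73.1%, with a mean of 71.8% ± 0.868 (SD, n = 6). Daughters overlapped neither dams nor sons, whereas sires and sons overlapped.

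The sires exceeded the dams by 7.66 points, the daughters exceeded the dams by 4.400 points and the sons exceeded the daughters by 2.68 points. Each difference had a two-sided exact permutation p of 0.00216, the smallest that 6 animals against 6 allow, and an adjusted p of 0.0173 (Benjamini-Hochberg over 184 region tests). The comparisons with dams share the dams, and the comparisons with daughters share the daughters. The sires exceeded the sons by 0.581 points, with an exact permutation p of 0.0476 and an adjusted p of 0.146. This small difference passed the threshold with an unweighted mean of CpGs (0.800 points, adjusted exact permutation p = 0.0362) and with CpGs of at least 10 reads (0.698 points, adjusted exact permutation p = 0.0323).

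The sex difference was larger among parents than among offspring by 4.98 points in a permutation of the parent and offspring labels within each sex, with p = 5.15e-05 over 853776 splits. The autosomal level moved much less in the same animals. It averaged 76.9% in sires, 76.8% in sons, 76.4% in daughters and 76.1% in dams, a sires minus dams difference of 0.850 points (exact permutation p = 0.0584).

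The order held in both strains. B6 sires exceeded B6 dams by 8.56 points and C3 sires exceeded C3 dams by 6.76 points, each with an exact permutation p of 0.10, the smallest that 3 against 3 allow. B6 and C3 parents differed by -0.739 points (B6 minus C3, exact permutation p = 0.686), and B6C3F1 and C3B6F1 offspring by -0.586 points (exact permutation p = 0.537). Among daughters alone the crosses did not overlap, with B6C3F1 at 71.1% and C3B6F1 at 72.4%, a difference of -1.31 points (exact permutation p = 0.10, again the smallest possible). The B6 dams averaged 66.5% ± 0.522 and the C3 dams 68.2% ± 1.38 (SD, n = 3 each).

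The first start region carried little methylation in any role, while most of the interval was highly methylated. From 10106493 to 10108036, with 52 CpGs, it averaged 9.09% in sires, 11.3% in sons, 10.1% in daughters and 7.27% in dams. The sires minus dams difference of 1.82 points there did not pass (adjusted exact permutation p = 0.126). Of the 215 tested windows, 33 had a sire mean below 50% and 145 had a sire mean above 80%.

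The window from 10107501 to 10108000, at +508 and with 28 CpGs, was close to unmethylated, at 0.617% in sires, 0.482% in sons, 0.913% in daughters and 0.654% in dams. The edge of this unmethylated stretch was where the promoter varied. The 300 bases around the first RefSeq start, the 250 before it being the promoter 1 sequence above, averaged 37.1% ± 5.67 in sires, 40.4% in sons, 35.3% ± 3.13 in daughters and 27.2% ± 2.94 in dams (SD, n = 6). Daughters were higher than dams there by 8.19 points (adjusted exact permutation p = 0.0173) and sires higher than dams by 9.96 points (adjusted exact permutation p = 0.0241). The latter call was lost with an unweighted mean of CpGs (9.07 points, adjusted exact permutation p = 0.115) and when any B6 dam, C3 dam 1 or C3 dam 2 was left out, where the difference stayed at 8.88 to 10.4 points (adjusted exact permutation p from 0.0569 to 0.0741).

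The other starts behaved differently from one another. The start region at exon 2, where sires exceeded dams by 15.01 points, averaged 88.4% in sires, 87.6% in sons, 78.8% in daughters and 73.3% in dams, and passed in sires against dams (adjusted exact permutation p = 0.0173) and in sons against daughters (adjusted exact permutation p = 0.0241). The start region at exon 4, with 6 CpGs, was low in all roles, from 16.4% in sons to 19.7% in sires and in daughters. The last start region, around +148142, averaged 92.4% in sires, 91.7% in sons, 88.7% in daughters and 85.7% in dams. Sires exceeded dams there by 6.70 points (adjusted exact permutation p = 0.0173), and the call held in all 12 fits without 1 animal. The start region at exon 7 went the other way, at 36.8% in sires, 40.6% in sons, 43.2% in daughters and 44.5% in dams. Its sires minus dams difference of -7.64 points passed (adjusted exact permutation p = 0.0419). That call was lost with an unweighted mean (-10.1 points, adjusted exact permutation p = 0.0925), with CpGs of at least 10 reads (-6.67 points, adjusted exact permutation p = 0.0637) and without any 1 of B6 sires 1 and 3, C3 sire 3 and C3 dams 2 and 3, at -7.72 to -6.71 points (adjusted exact permutation p from 0.0524 to 0.0569).

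The start region at exon 7 was also the only 1 of the 44 regions to pass in sires against sons, at -3.78 points (adjusted exact permutation p = 0.0241). That call was lost with an unweighted mean (-2.06 points, adjusted exact permutation p = 0.706), with CpGs of at least 10 reads (-3.09 points, adjusted exact permutation p = 0.172) and without any 1 of B6C3F1 sons 2 and 3 and C3B6F1 sons 1 and 3, at -3.99 to -3.31 points (adjusted exact permutation p from 0.0511 to 0.0634).

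**Figure D1:**
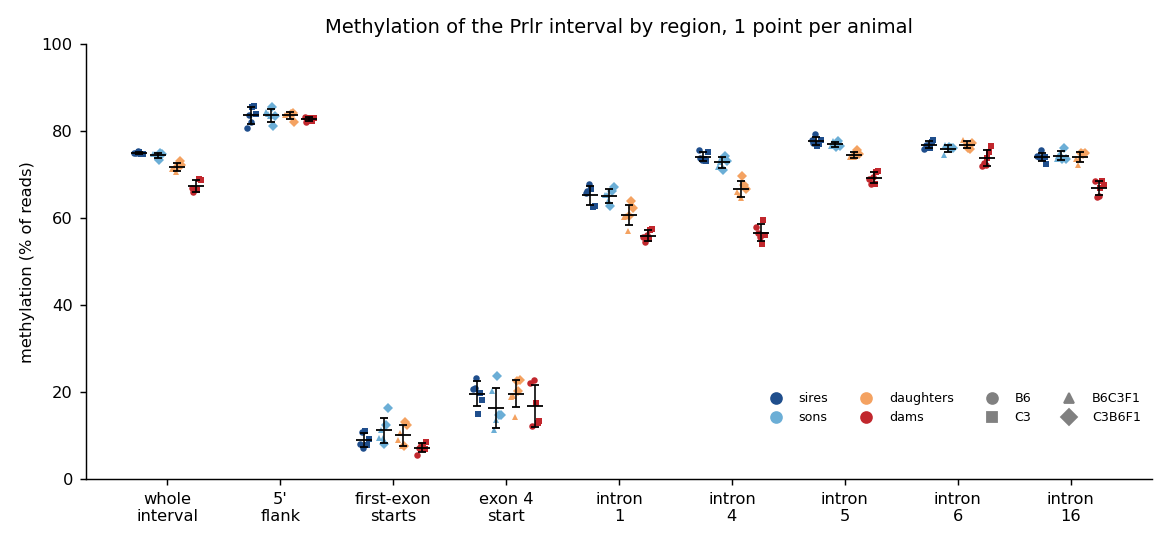
Methylation level (percent of reads, vertical axis) of 9 regions of the Prlr interval, with 1 point per animal (colour for role, shape for strain or cross) and the mean ± SD of 6 animals. The first start region lies near 10% in all roles. In introns 4 and 5 daughters overlap neither dams nor sons, whereas in intron 1 they overlap both.

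Regions were compared between roles by exact permutation. Of 44 regions, 18 passed in sires against dams, 17 of them with sires higher, against 10 in daughters against dams, all with daughters higher, and 9 in sons against daughters, 8 of them with sons higher. The 18 were the whole interval, the gene body, 4 start regions, the first RefSeq promoter, 1 of 15 exons with a CpG and 10 of 16 introns. These regions overlap, since the whole interval holds the gene body, the gene body holds the introns and exons, and start regions lie across them. The 18 are therefore not separate results. Regions of other genes were not tested in this way, so no background share can be given. Introns were not tested against exons, several of which hold only 1 CpG. Besides the calls noted above, those of the start region at exon 3 and introns 6 and 7 in sires against dams, of exon 8 and intron 6 in daughters against dams and of intron 3 in sons against daughters passed with all animals and not in some of the fits without 1 animal, in which the differences kept their direction and stayed within 1.5 times of those with all animals (2.91 to 3.33 points for intron 6 in sires against dams, beside 3.14). All 10 introns were higher in sires than in dams. Intron 4 had the largest sires minus dams difference of the introns and ran from 74.1% in sires and 72.8% in sons to 66.6% in daughters and 56.7% in dams, so that sires exceeded dams by 17.4 points, daughters dams by 9.97 points and sons daughters by 6.20 points (adjusted exact permutation p = 0.0173 for each).

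Intron 1 averaged 65.3% in sires, 65.1% in sons, 60.8% in daughters and 56.0% in dams. Intron 16 had another order, with daughters at 74.0% beside sires at 74.1% and sons at 74.4%, and dams at 67.0%. Intron 13 was higher in daughters, at 63.2%, than in sons, at 56.3%, by 6.83 points (adjusted exact permutation p = 0.0241). The exon that passed was exon 8, which holds a single CpG and averaged 93.8% in sires, 91.2% in sons, 88.0% in daughters and 79.2% in dams.

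**Figure D2:**
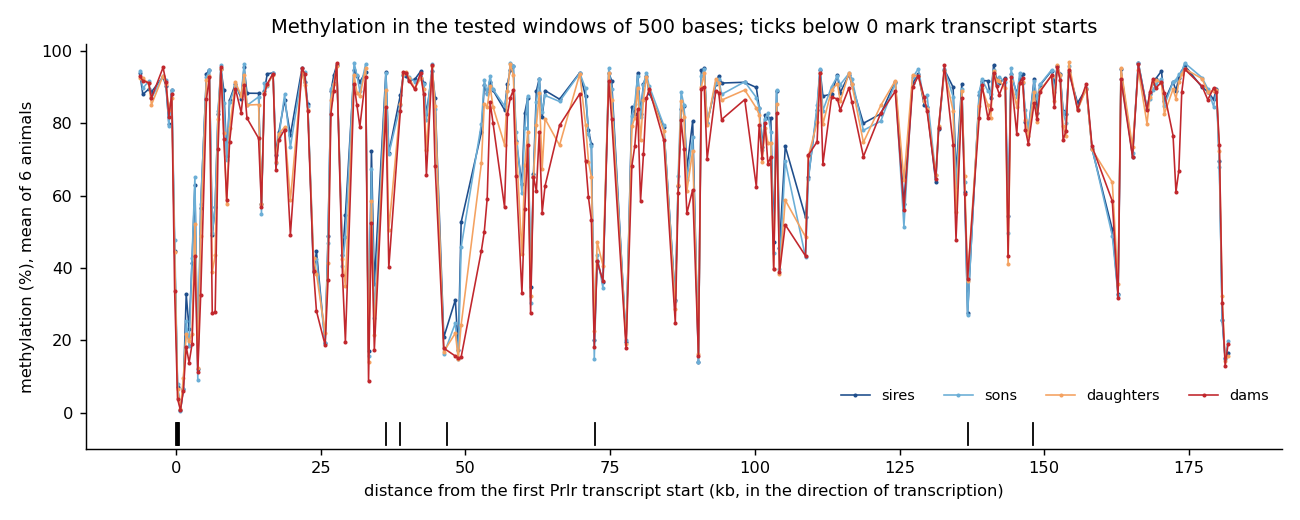
Mean methylation level (percent, vertical axis) of sires, sons, daughters and dams in the 215 tested windows against distance from the first annotated Prlr start (kb, horizontal axis), with ticks at the transcript starts. The level drops to 0.617% in sires in the window at +508, and the dams lie below the other roles over much of introns 1 and 4.

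Window by window, sires were more methylated than dams over much of the gene. The log2 of the methylated over the unmethylated read count, each plus 1, was tested with limma in 2580465 autosomal windows, and a window was called where the adjusted p (Benjamini-Hochberg) was below 0.05 and the levels were 20 points or more apart. Sires and dams gave 23 calls among the 215 windows of the interval, all higher in sires, against a background of 0.110% of all tested windows called and 0.0321% called with sires higher. Without the 20-point condition 71 windows passed, against a background of 0.789%. In 177 of the 215 windows the mean was higher in sires, and the median difference was 3.98 points against 0.708 over all tested windows.

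Daughters against dams gave 6 calls in the interval, all with daughters higher, against a background of 0.0179%, or 0.0174% with daughters higher. Sons against daughters gave 3 calls, all with sons higher (2 higher and 1 lower with the windows shifted by 250 bases), against a background of 0.0571% in either direction and 0.00368% with sons higher. Sires against sons gave 0 calls by limma, against a background of 0.00120% called. At an unadjusted p below 0.05 there were 17 windows (7.91%), against a background of 6.20% at that threshold. The background of sons against daughters ran mostly the other way, since 95 of 1473 calls over all windows were higher in sons.

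Every sire lay above every dam in 68 of the 215 windows (31.6%), against a background of 0.620%. Every daughter lay above every dam in 23 windows (10.7%), against a background of 0.360%. Every son lay above every daughter in 18 windows (8.37%), against 0.184%, and below in 2 windows, against 0.390%. Every sire lay above every son in 0 windows, against 0.124%.

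**Figure D3:**
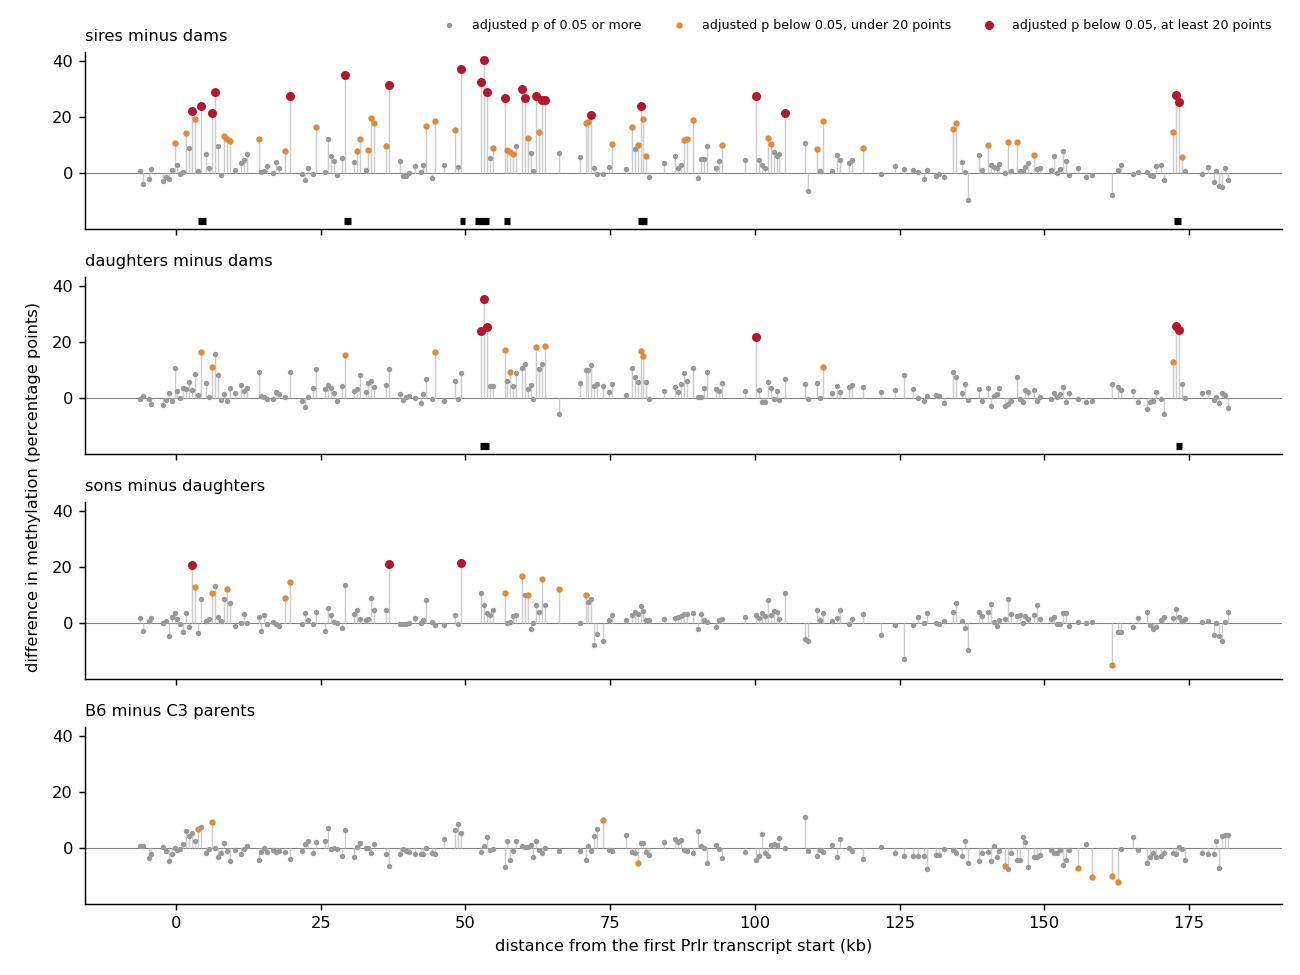
Difference in methylation (percentage points, vertical axis) in each of the 215 tested windows against distance from the first annotated Prlr start (kb, horizontal axis), in 4 panels for sires minus dams, daughters minus dams, sons minus daughters and B6 minus C3 parents. Red points are called windows, orange points have an adjusted p below 0.05 and under 20 points, and black bars are DMRs. The panels hold 23, 6, 3 and 0 called windows.

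The 23 called windows were intronic but for 1, which touched exon 2. Intron 1 held 6 of its 48 tested windows, intron 4 held 11 of 27, intron 5 held 3 of 45 and intron 16 held 2 of 13. None of the 8 tested windows upstream of the gene was called in any of the comparisons between roles. The called windows had a median of 5 CpGs, against 4 in the other 192 tested windows. Their median sire level was 77.6%, against 88.1% in the other windows, and their median level was 78.8% in sons, 67.5% in daughters and 52.0% in dams. As sires and dams chose these windows, the levels of those 2 roles are given as a description, while sons and daughters were not used in the choice.

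The daughters' mean lay below that of the sons in all 23 windows. It also lay above that of the dams in all 23, which the choice of windows with low dams favours and from which nothing is read. The position of the daughters between dams and sires varied widely, from 13.3% to 95.8% of the distance with a median of 57.3%. Daughters and dams were apart at an adjusted p below 0.05 by limma in 13 of the windows, beside 0.103% of all windows. The same dams chose these windows, so this count is a description and nothing is read from it. Sons and daughters, neither of which chose the windows, differed in 8 (background 0.288%). The sires minus sons difference in the same windows ran only from -3.01 to 6.87 points.

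The widest gap was in the window from 10160001 to 10160500, at +53008 in intron 4 and with 3 CpGs. The lowest, median and highest sires were at 87.1%, 90.3% and 93.2%, the dams at 42.7%, 50.2% and 56.6%, the daughters at 78.3%, 85.4% and 92.9%, and the sons at 89.5%, 91.8% and 97.1%. Dams stood apart from all other animals, and daughters overlapped sires and sons. Sires exceeded dams by 40.5 points (log2 ratio difference 3.14 ± 0.24 SE, limma adjusted p = 9.44e-10) and daughters exceeded dams by 35.4 points (limma adjusted p = 3.72e-07).

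The neighbouring window at +53508, with 8 CpGs, had the same order, with sires at 87.1%, 87.8% and 91.7%, daughters at 81.0%, 84.8% and 87.1% and dams at 48.9%, 59.8% and 66.4%. Sires exceeded dams there by 29.1 points (limma adjusted p = 4.68e-10) and daughters exceeded dams by 25.3 points (limma adjusted p = 2.31e-07). The window before them, at +52508, gave sires minus dams of 32.7 points and daughters minus dams of 24.2 points (limma adjusted p = 7.06e-08 and 0.000233).

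In other windows of this range the daughters were closer to the dams, though separate kinds of window were not tested for. In the window from 10156001 to 10156500, at +49008 in intron 4 and with 5 CpGs, the lowest, median and highest sires were at 44.4%, 54.3% and 58.7%, the sons at 43.1%, 44.2% and 54.5%, the daughters at 19.5%, 24.2% and 28.8%, and the dams at 2.88%, 16.8% and 23.1%. Males and females did not overlap, while daughters and dams did. Sires exceeded dams by 37.3 points (limma adjusted p = 1.19e-07) and sons exceeded daughters by 21.5 points (limma adjusted p = 0.0115), the largest such difference among the called windows.

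The window at +2508 in intron 1 had the smallest daughters minus dams difference of the called windows. Its sires were at 32.3%, 42.0% and 49.2%, its sons at 35.4%, 43.2% and 47.5%, its daughters at 15.5%, 22.9% and 25.2% and its dams at 14.0%, 17.5% and 26.2%. Sons exceeded daughters by 20.8 points (limma adjusted p = 1.75e-05), and daughters differed from dams by 2.98 points (limma adjusted p = 0.771). At +36508, the window that touches exon 2, sires exceeded dams by 31.7 points (limma adjusted p = 1.35e-06) and sons exceeded daughters by 21.0 points (limma adjusted p = 0.00169). At +59508 in intron 4 the means were 63.2% in sires, 60.8% in sons, 43.9% in daughters and 33.1% in dams, with a limma adjusted p of 0.0413 for sons against daughters and 0.441 for daughters against dams.

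Between these lay windows in which the daughters were about midway. At +29008 in intron 1, with 8 CpGs, the medians were 53.6% in sires, 46.8% in sons, 35.3% in daughters and 20.6% in dams, and sires exceeded dams by 35.0 points (limma adjusted p = 4.41e-08). At +6508 in intron 1 the means were 56.9% in sires, 56.8% in sons, 43.5% in daughters and 27.7% in dams.

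Whether the sex difference itself was larger in parents than in offspring was tested as an interaction, in which 5 windows of the interval were called against a background of 0.0149%, or 0.0146% with the parents' difference larger. They were the windows at +53008 (33.8 points, limma adjusted p = 0.00329), +53508 (25.5 points, limma adjusted p = 0.000273), +100008 (24.6 points, limma adjusted p = 0.00858), +172508 (22.8 points, limma adjusted p = 0.0118) and +173008 (23.5 points, limma adjusted p = 0.00252). In all 5 the daughters lay near the males, which the choice of windows by this interaction favours and from which nothing is read. At +173008 in intron 16 the daughters were at 90.0%, 90.8% and 94.2%, the sires at 89.1%, 92.9% and 95.1% and the dams at 59.7%, 68.6% and 72.9%. The windows at +172508 and +173008 lie upstream of the start of Agxt2 as well as within Prlr.

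Within B6 alone 26 windows of the interval were called in sires against dams (background 0.100%, or 0.0336% with sires higher), and within C3 alone 28 were (background 0.157%, or 0.0477% with sires higher), all of them higher in sires, with 21 called in both strains. The difference between the strains in their sex effect gave 0 calls by limma, against a background of 0.000698% called, and 14 windows (6.51%) at an unadjusted p below 0.05, against a background of 5.31% at that threshold. B6 against C3 parents gave 0 calls, with 9 windows at an adjusted p below 0.05 by limma (background 4.75%), where 0.436% of all windows were called. The strain difference in the 23 windows ran from -6.89 to 9.24 points. The widest strain difference of the interval was at +162508, where the 2 strains differed by -12.1 points (B6 minus C3, limma adjusted p = 0.00885) and the dams spread with an SD of 11.1 points. The 2 reciprocal crosses gave 0 calls by limma, against a background of 0.000426% called, and 15 windows (6.98%) at an unadjusted p below 0.05, against a background of 6.26% at that threshold.

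No single nucleotide variant between B6 and C3 in the deposited list fell in the interval. It lay in a stretch of 328409 bases without one, between 10040321 and 10368731, while autosomes averaged 1.17 variants per kb. Variant-free stretches at least this long held 21.0% of autosomal bases. With no variant in the interval, reads of the hybrids could not be assigned to the parental alleles.

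Single CpGs showed the same pattern at higher resolution. CpGs were tested with a Wald test on a beta-binomial fit, and a CpG was called at p below 1e-05. Of 1260 tested CpGs of the interval 134 were called in sires against dams, 133 of them higher in sires, against a background of 0.115% of all CpGs, or 0.0351% with sires higher. Daughters against dams gave 42 of 1262, all higher in daughters, against a background of 0.0215%, or 0.0209% with daughters higher. Sons against daughters gave 15, 12 of them higher in sons, against 0.0621%, or 0.00445% with sons higher. B6 against C3 parents gave 0 called CpGs by this test, against a background of 0.483% called, and 47 at an unadjusted p below 0.05, against 6.23% of all CpGs at that threshold. Sires against sons gave 0 called CpGs, against 0.000194%, and 38 at an unadjusted p below 0.05, against 2.08% of all.

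The CpG with the lowest Wald test p in sires against dams lay at 10280067, in the DMR8 sequence above. It was methylated at 87.5%, 95.6% and 100% in the lowest, median and highest sire, at 71.4%, 92.4% and 100% in sons, at 81.8%, 89.5% and 95.0% in daughters, and at 6.25%, 30.6% and 40% in dams. No dam came near any other animal. Sires exceeded dams by 62.5 points and daughters exceeded dams by 57.6 points, both past the threshold. As sires and dams chose this CpG and both comparisons share the dams, these values are a description and nothing is read from them.

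Another pattern was seen at the CpGs at 10109823 and 10109845 in intron 1, the 2 with the lowest Wald test p between sons and daughters. At 10109845 sons were at 54.1%, 74.7% and 77.8% and daughters at 17.3%, 25.9% and 37.9%, a difference of 45.6 points that passed the threshold. Dams at this CpG were at 13.0%, 21.5% and 31.7%, and so overlapped the daughters. The next CpG in that order, at 10156451 in DMR3, had daughters at 24.5%, 27.5% and 37.5% and dams at 3.57%, 21.8% and 28.9%. Choosing CpGs by sons against daughters favours low daughters, so nothing is read from their overlap with dams.

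Runs of CpGs formed 8 DMRs between sires and dams in the interval, all higher in sires, of 560 on all autosomes. As sires and dams chose them, their levels in those roles are a description. Leaving out 1 animal at a time left 5 to 8 of them, with 5 without B6 dam 3 or C3 dam 1. DMR6 was not found in 7 of these 12 fits and DMR7, whose sequence is printed above, in 8. Daughters and dams gave 2 DMRs of 100, which overlapped DMR4 and DMR8, and sons and daughters gave 0 of 267, although 15 CpGs of the interval were called in that comparison. B6 against C3 parents gave 0 of 2409.

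DMR3, the DMR with the widest gap between sires and dams at 45.4 points, held 5 CpGs over 233 bases in intron 4 and is printed whole above. Its sires were at 56.0%, 66.7% and 67.7%, its sons at 51.2%, 53.9% and 62.6%, its daughters at 24.5%, 29.9% and 36.4% and its dams at 6.99%, 17.1% and 29.9%. Males lay above all females, and daughters overlapped dams. All 5 CpGs were called between sires and dams, and at each the pooled reads of daughters were nearer to those of dams than to those of sons. At position 232 of the sequence, for example, sires were at 83.9%, sons at 74.0%, daughters at 38.9% and dams at 26.3%.

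DMR4 spanned 1777 bases of intron 4 with 14 CpGs, 12 of them called. Its sires were at 84.8%, 85.4% and 87.9%, its sons at 82.0%, 86.7% and 88.9%, its daughters at 78.5%, 79.9% and 80.8% and its dams at 39.6%, 51.8% and 53.2%. Daughters lay just under the males and far above the dams, who stood apart from all other animals. The DMR between daughters and dams from 10159792 to 10160797 covered its larger part, with 12 CpGs and a difference of 30.3 points, beside 36.6 points between sires and dams over DMR4.

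Within DMR4 the daughters were not at the male level throughout. At its position 772 the pooled reads of daughters were 52.6% methylated, between 76.4% in sons and 24.7% in dams. At position 833, the next CpG, daughters were at 77.8% beside 81.3% in sons and 43.2% in dams. The printed last 300 bases hold 6 CpGs, at which daughters ranged from 63.7% to 91.6% and lay farthest from the sons at position 1776, with 63.7% against 75.3%.

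DMR8 spanned 585 bases of intron 16, beyond the end of every protein-coding Prlr transcript, with 9 CpGs, 7 of them called. It also lies upstream of the start of Agxt2, at 10288287 on the plus strand. Which of the 2 genes it relates to was not tested. Its sires were at 87.4%, 90.5% and 91.6%, its sons at 90.5%, 91.5% and 94.7%, its daughters at 84.3%, 87.3% and 88.5% and its dams at 46.8%, 55.2% and 57.8%. As in DMR4, dams stood apart. Position 202 of the region was the exception, where daughters were at 58.3%, sons at 81.8% and dams at 35.0%.

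DMR2, with 8 CpGs over 610 bases of intron 1, placed the daughters between, with sires above dams by 38.5 points. Its sires were at 50.6%, 61.9% and 69.9%, its sons at 45.9%, 57.3% and 75%, its daughters at 36.9%, 43.0% and 47.7% and its dams at 20.1%, 24.3% and 27.2%. Daughters overlapped the lowest sons but no dam. DMR1, with 7 CpGs over 694 bases of intron 1, had sires at 73.1%, 82.5% and 86.7%, sons at 76.8%, 83.3% and 84.5%, daughters at 62.5%, 68.8% and 74.2% and dams at 35.5%, 42.2% and 50.3%. Its daughters overlapped the lowest sire only.

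The other 3 DMRs lay in introns 4 and 5. DMR5 in intron 4 averaged 79.0% in sires, 78.7% in sons, 69.3% in daughters and 50.6% in dams. DMR6 in intron 5 averaged 81.7%, 80.5%, 74.2% and 56.7% in the same order, and DMR7 in intron 5 averaged 95.3%, 95.7%, 91.0% and 66.0%. B6 and C3 dams differed most in DMR3, at 22.5% and 13.2%, and lay at 53.1% and 55.5% in DMR8.

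**Figure D4:**
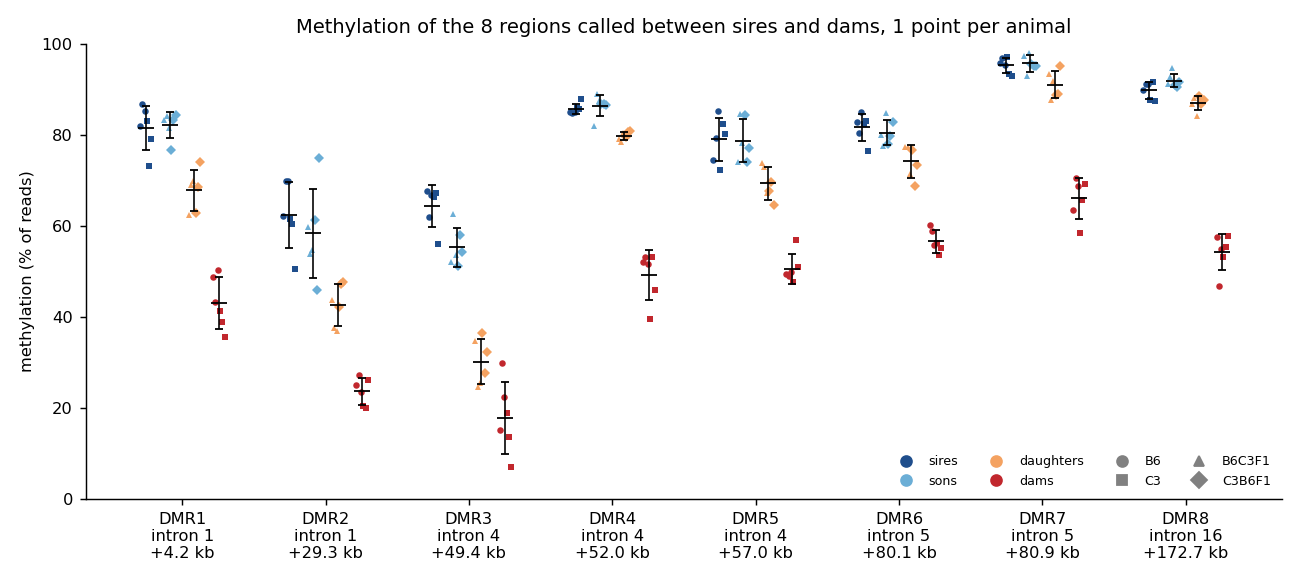
Methylation level (percent, vertical axis) of the 8 sires against dams DMRs of the Prlr interval, with 1 point per animal (colour for role, shape for strain or cross) and the mean ± SD of 6 animals. Dams lie below sires in all 8, as the choice of the regions requires, and daughters lie near the males in DMR4, DMR7 and DMR8 and nearer to the dams in DMR3.

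**Figure D5:**
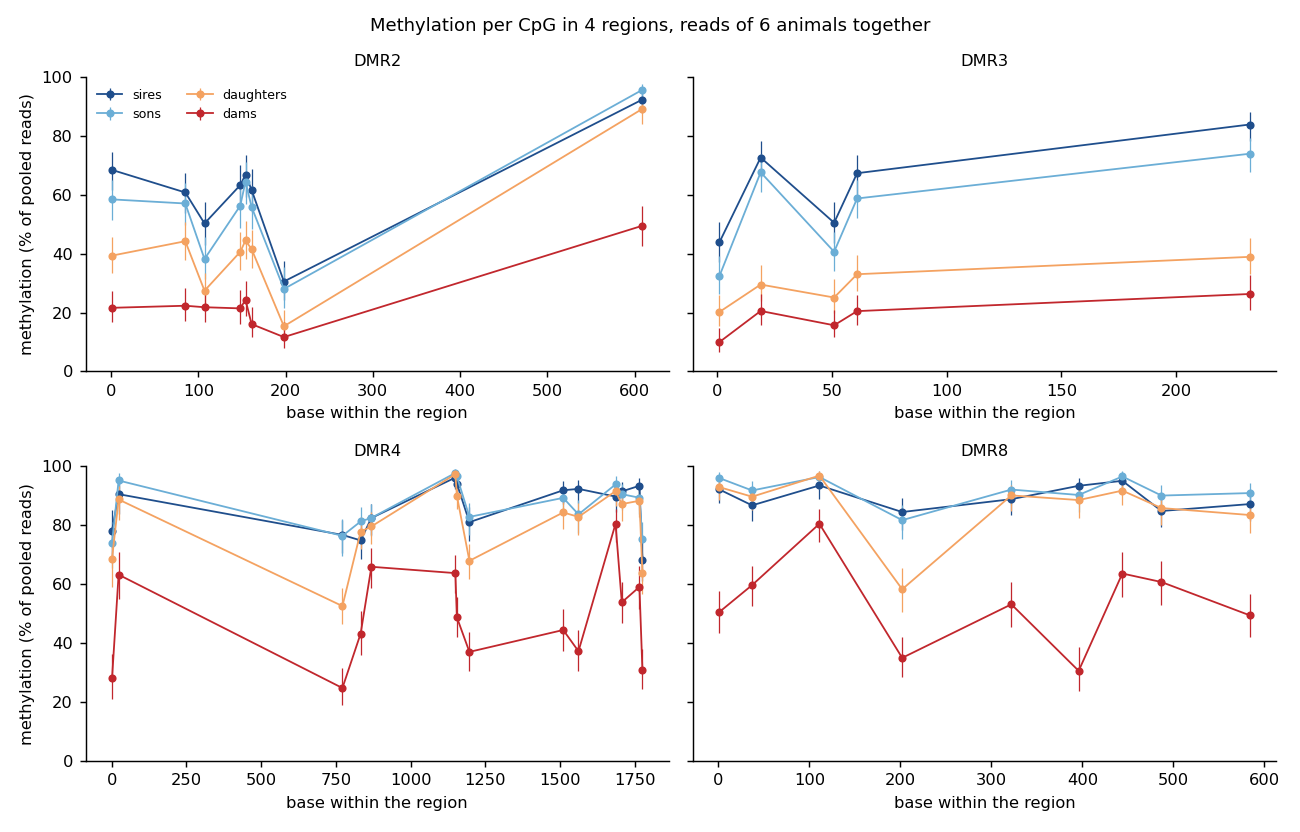
Methylation of each CpG (percent of the pooled reads of 6 animals, vertical axis) in DMR2, DMR3, DMR4 and DMR8 against distance from the start of the region (bases, horizontal axis), with 95% Wilson intervals that cover counting error only. In DMR8 the CpG at position 396 is at 93.4% in sires and 30.6% in dams.

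The called windows were searched for 3 short motifs on both strands. TTCNNNGAA, the letters that STAT factors are known to bind, was in 2 of the 23 called windows (8.70%), in 35 of the 215 tested windows and in 16.8% of all tested windows. TGTTTNC, which resembles the forkhead motif, was in 12 of the 23 (52.2%), in 85 of the 215 and in 39.0% of all. CANNTG, the E-box, was in all 23, in 207 of the 215 and in 93.8% of all.

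Other genes of prolactin and growth hormone signalling were counted in the same way. A list of 30 genes, each with 5 kb on either side, held 3296 tested windows, of which 11 were called higher and 5 lower in sires than in dams. That is 0.485%, beside 0.110% of all tested windows, and 0.334% with sires higher, beside 0.0321%. The calls with sires higher were 8 at Cux2, a transcription factor with female-predominant expression in liver, 2 at Socs2, which damps growth hormone signalling, and 1 at Ghr, the growth hormone receptor and the closest relative of Prlr in the list. The calls with sires lower were 1 each at Grb2, Fyn, Pik3r1, Cux2 and Foxo3. Daughters against dams gave 3 calls, all higher in daughters and all at Ghr, and sons against daughters gave 4 in each direction. Over all tested windows 0.0179% and 0.0571% were called in these comparisons. Prlr itself, counted in the same way, had 23 called of 233 windows in sires against dams.

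The windows most like Prlr over the 24 animals were sought by Pearson's r with the summed methylation of the called windows, which averaged 73.5% ± 1.79 in sires, 72.3% ± 1.08 in sons, 61.2% ± 1.74 in daughters and 44.9% ± 1.09 in dams (SD, n = 6). This is a description over animals that share their role, and carries no test. Among the tested windows outside the interval, the 10 with the highest values lay in or nearest to Serpina6 (r = 0.972), which encodes the corticosteroid carrier of plasma, A1bg (r = 0.967 and 0.960), Tekt5 (r = 0.964), Ndufaf2 (r = 0.957), Socs2 (r = 0.956), Fads1 (r = 0.954), a fatty acid desaturase, Cyp3a41a (r = 0.953), a female-predominant cytochrome P450, Hamp2 (r = 0.952), a hepcidin gene, and Cux2 (r = 0.950). The windows of Tekt5, A1bg (r = 0.960) and Hamp2 lay outside the gene, at 20541, 1644 and 391 bases, and the others inside it.

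The tissue and its makeup were checked at the starts of 23 marker genes, taken as 500 bases on either side. Hepatocyte markers such as Alb and Ttr were low in every role, from 13.2% to 30.8%, while leukocyte markers were at 73.2% to 89.8% and Kupffer cell or macrophage markers at 61.3% to 93.1%. Endothelial markers ranged from 2.03% to 74.7% and stellate cell or cholangiocyte markers from 1.92% to 70.8%. Over all 23 markers, sires minus dams ran from -5.33 to 5.69 points and daughters minus dams from -2.45 to 6.01 points. The part of cell composition in the Prlr differences was not tested.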

How the data were processed

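Liver DNA of 24 mice (8 groups of 3) was bisulfite sequenced. Per the submitters' processing notes, reads were aligned to build mm9 with Bismark 0.7.8 and Bowtie 0.12.8, and the authors deposited counts of methylated and unmethylated reads per CpG. Duplicates had been removed with Bismark's own tool. All 48 count columns were used and 0 were left unused. Autosomal depth was 19.4 to 32.8 counts per CpG, and intervals cover counting error only. FOXA1 ChIP libraries were not analysed here.

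Reads were summed in 500-base windows (at least 3 CpGs and 30 reads in each animal), and log2((methylated + 1)/(unmethylated + 1)) was fitted with limma 3.58.1 (R 4.3.3), with 8 group means and a trended, robust prior. Single CpGs (at least 5 reads in at least 50% of animals of each group) were tested by a beta-binomial Wald test after the model of DSS, written in Python 3.11.15 with numpy 2.4.6, scipy 1.17.1 and numba 0.67.0. A DMR needed 5 CpGs or more, 75% of them called, and 20 points or more of difference. Regions were tested by two-sided exact permutation with Benjamini-Hochberg adjustment. The scripts were tested on simulated data.

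Named were all DMRs, the 8 called windows with the largest sires minus dams difference, those with the largest strain or sons minus daughters difference, windows holding a transcript start, and the 10 windows most like Prlr. The windows at +2508, +100008, +172508 and +173008 and the single CpGs were named after their values were seen. The interval, lists and tests were chosen with earlier results of these data known, and the study singled out Prlr on these animals. The share of called windows, the permutation p-values and the other tests of the interval, the interaction among them, are therefore not independent evidence. Alternatives were other pseudocounts, scales, minimums, window positions, thresholds, smoothing, weightings, a replicate block and leaving out each animal. Animals are the replicates, some of them relatives.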

Additional observations from a re-analysis of the deposited data

Results flagged for a closer look

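In groups of 6 animals, the highest or lowest animal stood apart from the others by Dixon's 95% critical value in 12 of 152 groups tested (7.89%), where chance gives about 1 in 20. C3 sire 3 was the highest sire in 3 overlapping places, at 87.9% in DMR4 (others 84.8% to 85.9%), at 88.3% in the daughters against dams DMR within it (others 84.8% to 85.8%) and at 91.7% in the window at +53508 (others 87.1% to 87.9%). In DMR4, B6C3F1 son 1 was at 82.0%, with the other sons at 86.7% to 88.9%. In DMR5, C3 dam 2 was at 56.8%, with the other dams at 47.6% to 50.9%.

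B6C3F1 son 2 was at 54.5% in the window at +49008, with the other sons at 43.1% to 45.7%, and at 22.8% in the start region at 10178815 to 10179815, with the others at 27.5% to 30.3%. B6 dam 2 was at 13.8% in the window at +6508, with the other dams at 28.4% to 33.0%, and at 95.1% in the third RefSeq promoter, with the others at 87.2% to 89.8%. C3 dam 3 was at 5.92% in the window at +8, with the others at 3.00% to 3.97%. C3B6F1 daughter 1 was at 88.9% in the window at +38508 (others 83.7% to 85.6%), and C3B6F1 daughter 3 was at 31.3% in the window at +72008 (others 18.96% to 22.3%).

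The sex difference of parents exceeded that of offspring by a test of the difference itself in 6 places. In the window at +53008 the excess was 33.8 points (40.5 in parents, 6.63 in offspring), at +53508 it was 25.5 points (29.1 and 3.59), at +100008 it was 24.6 points (27.5 and 2.91), at +172508 it was 22.8 points (28.0 and 5.23) and at +173008 it was 23.5 points (25.6 and 2.11). Over the whole interval it was 4.98 points (7.66 and 2.68).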

How the results depend on the processing

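The differences between sires and dams, daughters and dams, and sons and daughters over the whole interval kept their direction and their call under each alternative run. Of 447 comparisons of counts and whole-interval values with an alternative, 422 stayed on the same side or within 1.5 times, 13 were weaker, 12 were stronger and 0 reversed. A count of 0 that stayed 0 scored as unchanged, as for windows in sires against sons, so part of the 422 says little about stability. Of 1243 such comparisons for single named regions, windows and DMRs, 1162 were unchanged in direction and call, 72 lost their call and 9 reversed. The counts of called windows in the interval followed the thresholds. With a 10-point minimum they were 58 for sires against dams, 17 for daughters against dams, 14 for sons against daughters (13 with sons higher, 1 lower), 8 for the sex difference between generations, 42 within B6 and 2 for B6 against C3, where 0.554%, 0.0879%, 0.245%, 0.0232%, 0.187% and 2.22% of all windows were called in the same order. The 2 for B6 against C3 lie under that background. With at least 5 CpGs per window, which left 103 windows of the interval, they were 14 and 3 for sires and daughters against dams, 16 within B6 and 18 within C3, where 0.104%, 0.0198%, 0.0997% and 0.154% of all windows were called. With at least 100 reads, which left 71, they were 10, 3, 12 and 12 in the same order, beside 0.0962%, 0.0175%, 0.0923% and 0.138% of all. Nearly all windows 20 points apart also passed on p (2827 of 2829 for sires against dams, 463 of 473 for daughters against dams and 1473 of 1476 for sons against daughters), so the like counts under other pseudocounts, scales and the replicate block follow from the size condition and say little about stability. DMRs between sires and dams were 13 with at least 50% called CpGs and 5 at 30 points, and those between daughters and dams were 1 at 30 points. Averaging counts over 250 bases gave 25 called CpGs for daughters against dams and 1 DMR for sons against daughters. The sires minus sons difference was 0.800 points unweighted and 0.698 points with at least 10 reads.

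Leaving out each animal gave 5 to 8 DMRs between sires and dams (5 without B6 dam 3 or C3 dam 1), 5 to 8 windows for the sex difference between generations (8 without B6 sire 1) and 0.363 to 0.688 points for sires minus sons (adjusted exact permutation p = 0.0486 without C3B6F1 son 2). DMR2, DMR3, DMR4 and DMR8 were called in each of these 12 fits, DMR1 was lost without C3 sire 1, DMR5 without B6 dam 3 or C3 dam 1, DMR6 in 7 and DMR7 in 8. Among regions, intron 6 lost its sires against dams call without any 1 of the sires (2.91 to 3.33 points, adjusted exact permutation p from 0.0511 to 0.0648) and intron 7 without B6 sire 2, C3 sire 3 or B6 dam 3 (3.98 to 4.33 points, 0.0538 each) and unweighted (2.62 points, 0.339). The start region at exon 3 lost it without B6 sire 3, C3 sire 2 or C3 sire 3 (3.91 to 4.24 points, 0.0538 to 0.0597). In daughters against dams, intron 6 lost its call without any B6C3F1 daughter or C3B6F1 daughter 3 (2.89 to 3.14 points, 0.0664 to 0.0715), and exon 8 without B6C3F1 daughter 1 or 3 or C3B6F1 daughter 3 (8.20 to 8.89 points, 0.0511 to 0.0613) and relative to the autosomal level (0.0511). In sons against daughters, intron 3 lost its call without B6C3F1 son 1 or 2, any B6C3F1 daughter or C3B6F1 daughter 1 or 2 (1.80 to 2.40 points, 0.0511 to 0.0885), unweighted (0.0676) and relative to the autosomal level (0.0648). In these fits the differences kept their direction, and why a call was lost was not tested. Windows shifted by 250 bases gave 3 calls for sons against daughters, 2 with sons higher and 1 lower. Signs turned in 3 uncalled windows, at +508 (sires minus dams -0.137 to 0.0770), +162508 (sires minus dams -0.596 to 3.33) and +136508 (daughters minus dams -1.74 to 1.23). The causes were not tested.

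Same-numbered animals of different groups deviated together only weakly (highest r = 0.0620, C3B6F1 son 1 with C3B6F1 daughter 1). B6C3F1 sons 1, 2 and 3 each correlated best with the same-numbered B6C3F1 daughter (r = 0.00923, 0.0109 and 0.00884). The same held for C3B6F1 sons with C3B6F1 daughters (r = 0.0620, 0.0177 and 0.0193) and for B6 dams with C3 sires (r = 0.00856, 0.00779 and 0.0125). It also held for C3 dams with C3B6F1 sons and daughters, and between the crosses for B6C3F1 daughters with C3B6F1 sons. In other pairs of groups, such as B6 sires with B6 dams, it did not hold for every animal. The labels do not say what the number marks, so the numbers were not taken as pairs. With a replicate block the counts of called windows were 23, 6 and 3 for sires against dams, daughters against dams and sons against daughters, and 5 for the sex difference between generations, as without it. At an adjusted p below 0.05 alone, sires against dams gave 72 windows with the block and 71 without. Windows below 3 CpGs or 30 reads were not tested by limma, which limits what could be seen in 135 windows.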
